A study of Mus musculus with 9 samples.

Results

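Amino acid transporter genes are described here across putative female germ cells (PFGC), oocytes and spermatogonial stem cells (SSC) of the mouse. Members were taken by name: every array probe whose platform gene symbol is Slc1a, Slc3a, Slc6a, Slc7a, Slc36a or Slc38a followed by a number. The rule found 112 of 45281 probes, standing for 54 genes. Slc7a6os, which lies beside Slc7a6 and encodes no carrier, has 2 probes and was left out. Each array gives a detection p-value per probe, set against its negative controls. Probes with a value under 0.01 on 3 or more of the 9 arrays were kept as detected, which left 39 probes of 29 transporter genes, among 11077 genes in all. The PFGC were collected by magnetic sorting and gave 3 arrays. The oocytes, also magnetically sorted, gave 3 arrays, and the SSC, which had been kept in culture, gave 3. All 3 groups are of strain C57BL/6, and the labels give no age, tissue of origin or sorting antibody. Sorted cells are thus set against cultured ones in both comparisons with SSC, so handling and cell type cannot be told apart there. Whether the replicates of a group were separate animals or cultures is not stated, and the p-values may therefore rest on technical spread alone.

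Amino acids cross the plasma membrane only through carriers, and each family has its own coupling and substrates. SLC7 light chains exchange one amino acid for another and mostly reach the surface bound to the SLC3 heavy chain Slc3a2, while the cationic carriers of the same family need no partner. SLC38 and SLC6 carriers use the sodium gradient, and SLC1 carriers move glutamate, aspartate or small neutral amino acids. In the mouse ovarian follicle, oocytes take up several amino acids poorly by themselves and receive them from cumulus cells through gap junctions, and glycine taken up by Slc6a9 serves the egg and early embryo as an osmolyte. When amino acids run short or protein folding fails, the transcription factor ATF4 raises a set of genes that includes several of these carriers.

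Levels are log2 normalized intensities of the brightest detected probe of each gene, so a level compares groups within a gene and never one gene with another. A gene was called at a Benjamini-Hochberg adjusted p under 0.05 in limma, with the adjustment over the whole set of 11077 genes. In PFGC against SSC, 19 of the 29 transporter genes were called (65.5%), beside a background of 52.1% over all genes tested. Of these, 16 were higher (55.2%, background 24.5%) and 3 lower (10.3%, background 27.6%). Increases of at least 2-fold were called for 11 transporter genes (37.9%, background 11.2%) and decreases of that size for 0 (background 8.49%), with 20 members (69%) at an unadjusted p under 0.05 in either direction, beside 58% of all genes. In oocytes against SSC, 20 were called (69%, background 61.7%), 18 of them higher (62.1%, background 28.6%) and 2 lower (6.9%, background 33.1%). At least 2-fold changes were called upward for 13 (44.8%, background 14.6%) and downward for 1, Slc1a6 (3.45%, background 13.7%). These counts use fitted folds, also for genes undetected in SSC, whose bounds, given gene by gene, are smaller. Both comparisons use the same SSC arrays. The median log2 fold change of the 29 was 0.60 in PFGC against SSC, beside -0.06 over all genes, and 0.86 in oocytes against SSC, beside -0.07. With no background correction these member medians were 0.26 and 0.37, beside -0.04 and -0.05. Over the 16 members measured with probes detected on all 9 arrays they were 0.14 and 0.26, beside -0.08 and -0.09. The mean level was highest in oocytes for 22 members, in PFGC for 2 and in SSC for 5, and in 23 the PFGC mean lay between the other two. Probes of 16 members were detected on all 9 arrays. These counts and medians describe detected members only. Of the members called higher, 8 in the PFGC comparison and 9 in the oocyte comparison were detected on no SSC array, so they passed the filter through the groups in which they were high.

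**Figure D1:**
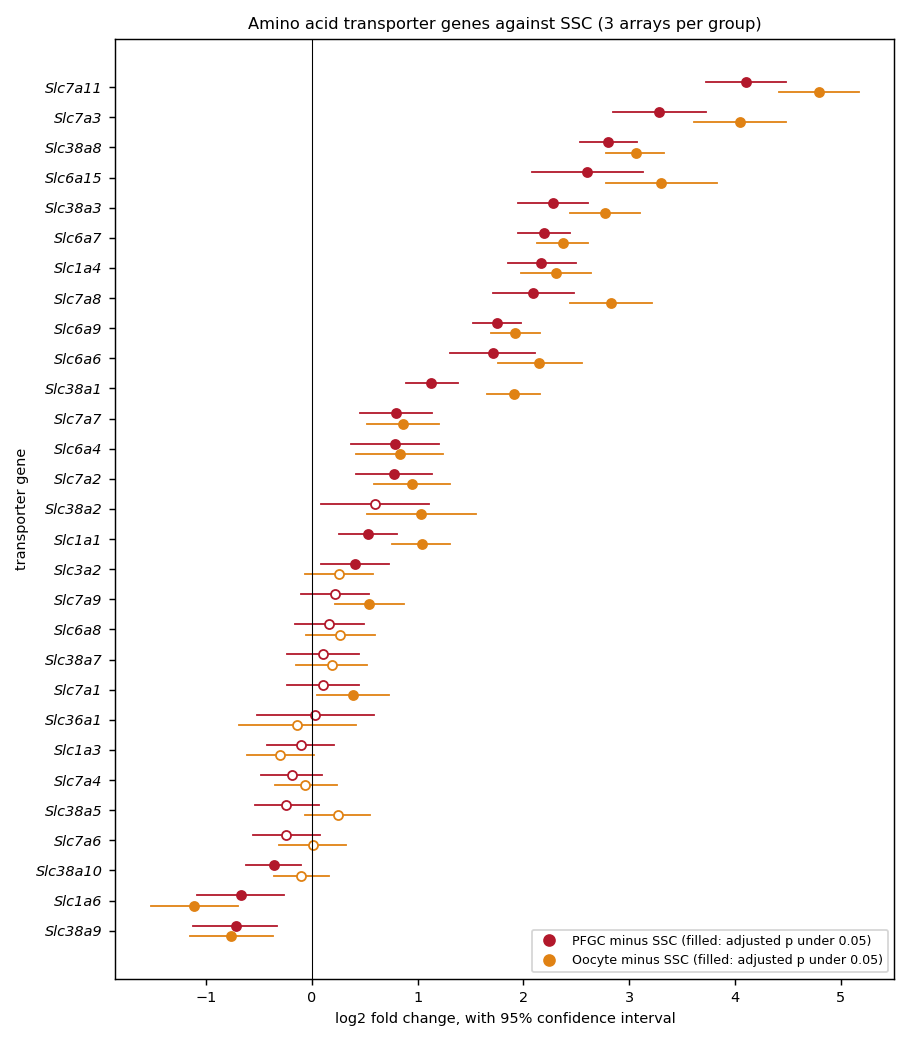
Log2 fold changes (horizontal axis) of the 29 detected transporter genes (vertical axis) for PFGC minus SSC and oocytes minus SSC, with 95% confidence intervals and filled points at an adjusted p under 0.05. Slc7a11 and Slc7a3 lie farthest to the right in both comparisons, and Slc38a9 and Slc1a6 lie left of 0. Points of genes undetected in SSC are fitted values and not bounds.

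Markers of other cells moved along the same comparisons, and their part in the transporter differences was not tested. Fewer cells of a type and less RNA per cell cannot be told apart in such samples. Oocyte markers were higher in both PFGC and oocytes than in SSC for 12 of 12 detected genes, and their summed intensity was 17104 to 19352 in PFGC, 20786 to 23362 in oocytes and 385 to 489 in SSC, where Bmp15, Figla, Zp2, Zp3, Nlrp5, Mos and Padi6 were not detected. Markers of undifferentiated spermatogonia were lower in both for 12 of 12 (1257 to 1556 in PFGC, 1091 to 1208 in oocytes, 4008 to 4859 in SSC). Of these, Lhx1 was not detected in PFGC, and Gfra1, Lhx1 and Nanos3 were not detected in oocytes. Granulosa and cumulus markers were higher in 8 of 10 and lower in 2 of 10 in both. The 2 lower ones were Fshr (log2 fold change -1.05 in PFGC and -1.13 in oocytes) and Amhr2 (-0.88 and -1.08). Sums of this list were 25501 to 27153 in PFGC, 28942 to 30447 in oocytes and 14890 to 18948 in SSC. In SSC, Foxl2, Nr5a2, Esr2, Fst and Bmpr1b were not detected. All 10 granulosa and cumulus markers were detected in the arrays labelled as oocytes. Endothelial markers were higher in 10 of 11 in PFGC and 11 of 11 in oocytes, with sums of 3781 to 4342 in PFGC, 5849 to 6494 in oocytes and 1115 to 1291 in SSC, where Tie1 and Icam2 were not detected. Macrophage markers were higher in 2 of 8 in PFGC (25%, near the 24.5% of all genes) and 5 of 8 in oocytes (62.5%). Their sums were 995 to 1273 in PFGC, 1730 to 2089 in oocytes and 767 to 943 in SSC. Adgre1 was detected in neither PFGC nor SSC. Sertoli markers were lower in 8 of 11 in PFGC and 9 of 11 in oocytes, and 1 was higher in each (Rhox5 in PFGC, Trf in oocytes). Sums of these markers were 20024 to 29790 in PFGC, 5240 to 5952 in oocytes and 89451 to 92701 in SSC. Dhh and Defb36 were not detected in oocytes. Fibroblast and feeder markers were lower in 5 of 11 and higher in 2 in PFGC, and lower in 4 and higher in 3 in oocytes. That is 63.6% called in each comparison, beside 52.1% and 61.7% of all genes. Their sums were 20908 to 23086 in PFGC, 23348 to 24872 in oocytes and 30959 to 37473 in SSC, and Thy1 was not detected in oocytes.

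Among the SLC7 light chains, Slc7a11 had the largest difference from SSC in both PFGC and oocytes. It encodes the exchanger that imports cystine, the precursor of cysteine and glutathione, in return for glutamate. Its log2 level was 9.08, 8.66 and 8.72 on the PFGC arrays, 9.65, 9.53 and 9.36 on the oocyte arrays, and 4.65, 5.03 and 4.48 on the SSC arrays, where it was not detected. Neither PFGC nor oocyte arrays overlapped with SSC arrays. Here and below a call nearly fixes this, since 97.4% and 97.1% of all genes called in these comparisons did not overlap either. Slc7a11 was at least 11.7-fold higher in PFGC (adjusted p = 3.34e-08) and at least 18.9-fold higher in oocytes (adjusted p = 6.85e-09) than in SSC. These bounds set the brighter group against the lowest level of any detected probe, or the probe's own level where that was higher. They hold for the main processing only. An adjusted p printed with a bound, here and below, belongs to the fitted difference and is no test of the bound. Over the settings other than left-out arrays, the log2 fold change of Slc7a11 went down to 1.72 in PFGC and 2.39 in oocytes. The other 3 detected probes of Slc7a11 were also below detection on every SSC array, so for them too only bounds can be given, and how large a bound can be depends on the brightness of the probe. They were at least 2.05-fold and at least 1.05-fold higher in PFGC for the first and second, and at least 2.52-fold, 2.26-fold and 1.06-fold higher in oocytes for all 3. The third was detected on no PFGC array and was not called there (adjusted p = 0.14, over all detected probes), and the other comparisons of these probes with SSC were called.

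The upstream sequences of 3 members called higher in both comparisons with SSC are shown. They hold short motifs tied to the ATF4 response or to the oocyte transcription factor NOBOX. They are the 250 bases before the annotated start, on the gene's own strand, from RefSeq (GRCm38.p6, the first entry of each gene): Slc7a11 at chr3:50443614-50443863 (minus strand), Slc7a7 at chr14:54417945-54418194 (minus strand) and Slc1a4 at chr11:20332714-20332963 (minus strand). Capitals mark the amino acid response element TGATGNAA, searched on both strands, in Slc7a11 and Slc7a7, and the NOBOX element TAATTG, also on both strands, in Slc1a4.
Slc7a11: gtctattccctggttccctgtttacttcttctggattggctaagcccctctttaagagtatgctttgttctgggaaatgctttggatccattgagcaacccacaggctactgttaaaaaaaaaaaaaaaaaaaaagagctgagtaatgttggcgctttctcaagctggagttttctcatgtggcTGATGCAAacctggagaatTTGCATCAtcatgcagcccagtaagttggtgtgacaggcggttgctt
Slc7a7: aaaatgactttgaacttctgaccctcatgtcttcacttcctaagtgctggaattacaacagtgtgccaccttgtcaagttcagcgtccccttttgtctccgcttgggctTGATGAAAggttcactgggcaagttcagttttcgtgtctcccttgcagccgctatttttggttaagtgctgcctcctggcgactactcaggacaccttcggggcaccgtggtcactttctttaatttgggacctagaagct
Slc1a4: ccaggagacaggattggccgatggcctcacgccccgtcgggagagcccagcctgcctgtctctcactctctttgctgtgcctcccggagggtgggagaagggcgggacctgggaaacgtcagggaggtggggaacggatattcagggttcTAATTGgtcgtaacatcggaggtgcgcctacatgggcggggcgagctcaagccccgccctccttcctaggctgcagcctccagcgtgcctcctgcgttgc
Slc7a11 held 2 copies of TGATGCAA on opposite strands, ending 59 and 40 bases before the start. The single copy in Slc7a7 was TGATGAAA, ending 134 bases before the start. Of the 29 detected members 20 were matched in the promoter table, and 2 of the 20 held TGATGNAA, beside 3.53% of 27025 genes. TAATTG was held by 2 of the 20, Slc1a3 and Slc1a4, beside 7.34% of all genes. Slc1a3 was not called against SSC, and its sequence is not shown. The antioxidant response element TGACNNNGC, searched on both strands, was held by 2 of the 20, Slc38a2 and Slc7a1, beside 10.1%. A match is a run of letters and not a measured binding site.

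Slc7a8, a light chain that exchanges neutral amino acids, followed the same order. Its log2 level was 9.68, 9.21 and 9.39 in PFGC, 10.27, 10.09 and 10.13 in oocytes, and 7.58, 7.43 and 6.99 in SSC. The gene was 4.26-fold higher in PFGC (log2 fold change 2.09, SE 0.17) and 7.10-fold higher in oocytes (2.83, SE 0.17) than in SSC, and a second probe gave 1.83 and 2.32. Slc7a7, which exchanges cationic for neutral amino acids, was 1.75-fold higher in PFGC and 1.81-fold in oocytes (adjusted p = 0.00138 and 0.000699), and its second probe gave log2 fold changes of 0.92 and 1.22. The related exchanger Slc7a6 was not called, with levels of 6.93, 6.65 and 6.85 in PFGC, 7.03, 6.95 and 7.18 in oocytes, and 7.17, 6.79 and 7.18 in SSC. Its 95% interval was -0.55 to 0.08 for PFGC minus SSC and -0.31 to 0.32 for oocytes minus SSC. Leaving out SSC replicate 2 brought Slc7a6 past the threshold in PFGC against SSC (-0.37, adjusted p = 0.0436), as did array weights (-0.32, adjusted p = 0.0498). Slc7a9, a cystine and cationic amino acid exchanger of kidney and gut, was called in oocytes against SSC (log2 fold change 0.54, adjusted p = 0.00794), at least 1.06-fold higher and near the detection limit, and PFGC minus SSC was 0.22 (adjusted p = 0.227). Slc7a9 was not called in oocytes without background correction (adjusted p = 0.0696) or on the authors' processed values (0.0693).

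The heavy chain Slc3a2, which carries most SLC7 light chains to the surface, was measured by 1 dim probe. Its level was 4.94, 5.24 and 5.37 in PFGC, 5.15, 4.80 and 5.14 in oocytes, and 4.77, 4.78 and 4.77 in SSC. The probe was detected on 2 PFGC, 1 oocyte and 0 SSC arrays, and no fold bound above 1 could be given. Slc3a2 was called higher in PFGC (log2 fold change 0.41, adjusted p = 0.0335) and not in oocytes (0.26, adjusted p = 0.143). The PFGC call ended without PFGC replicate 2 (adjusted p = 0.0945) or 3 (0.11), or without SSC replicate 1 (0.0764), 2 (0.0625) or 3 (0.062), and under 5 other settings (adjusted p up to 0.175). Slc7a5, a light chain bound to Slc3a2, is not analysed here.

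**Figure D2:**
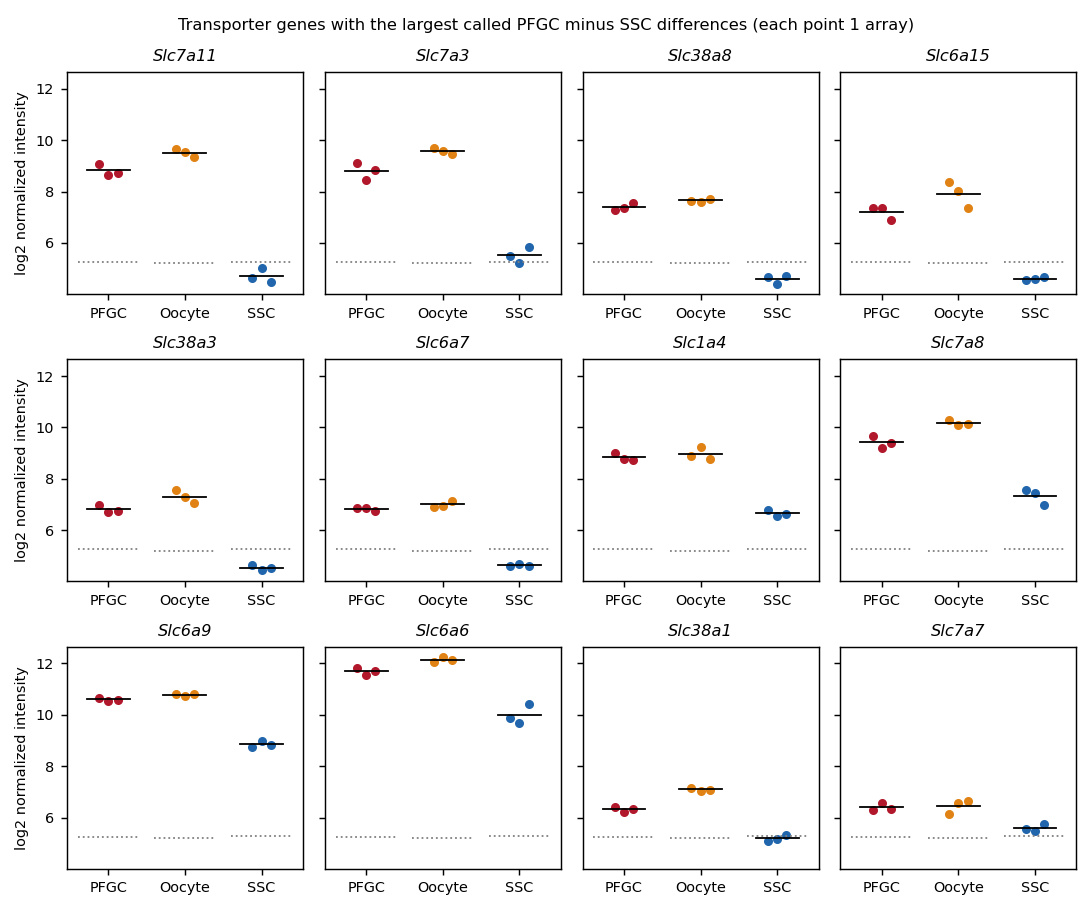
Log2 normalized intensity (vertical axis) on each array of PFGC, oocytes and SSC for the 12 transporter genes with the largest called PFGC minus SSC differences; black bars are group means and dotted lines the mean of the lowest detected level per array. In Slc7a11, Slc38a8, Slc6a15, Slc38a3, Slc6a7 and Slc38a1 the probe was detected on no SSC array.

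Cationic carriers bring in arginine, lysine and ornithine. Slc7a3 was the cationic carrier that differed most, with log2 levels of 9.10, 8.45 and 8.85 in PFGC, 9.68, 9.56 and 9.46 in oocytes, and 5.49, 5.22 and 5.85 in SSC. It was detected on 2 SSC arrays and on all PFGC and oocyte arrays, and the groups did not overlap. The gene was 9.72-fold higher in PFGC (log2 fold change 3.28, SE 0.19) and 16.5-fold higher in oocytes (4.05, SE 0.19) than in SSC. Its SSC levels lay near the lowest level of any detected probe there (5.23 to 5.33). Over the settings other than left-out arrays, its log2 fold change went down to 2.01 in PFGC and 2.67 in oocytes. Slc7a2, a carrier also known for supplying arginine to nitric oxide synthesis in macrophages, was 1.72-fold higher in PFGC and 1.93-fold in oocytes (adjusted p = 0.00242 and 0.000514). Slc7a1, the cationic carrier found in most tissues, was dim: 5.38, 4.89 and 4.95 in PFGC, 5.48, 5.29 and 5.29 in oocytes, and 5.14, 4.92 and 4.83 in SSC. PFGC minus SSC was 0.11 (95% interval -0.23 to 0.45), and oocytes minus SSC was 0.39 (adjusted p = 0.0487), at least 1.06-fold. That call ended when any oocyte array was left out (adjusted p = 0.151, 0.0802 and 0.0679 without replicates 1, 2 and 3), without PFGC replicate 2 (0.0513) or 3 (0.0529), or without SSC replicate 2 (0.105) or 3 (0.127), and under 8 other settings. Slc7a4, whose transport activity is not established, differed from SSC by -0.19 in PFGC and -0.06 in oocytes, neither of them called.

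Sodium-coupled SLC38 carriers of systems A and N move glutamine, alanine and other small neutral amino acids. Slc38a8, a glutamine carrier, had levels of 7.30, 7.35 and 7.54 in PFGC, 7.65, 7.61 and 7.71 in oocytes, and 4.67, 4.40 and 4.72 in SSC. It was at least 4.37-fold higher in PFGC and at least 5.23-fold higher in oocytes than in SSC (adjusted p = 4.86e-08 and 1.46e-08). Slc38a3, a system N carrier that mouse cumulus cells use to take up alanine for the oocyte, had levels of 7.0, 6.71 and 6.73 in PFGC, 7.57, 7.28 and 7.07 in oocytes, and 4.64, 4.44 and 4.52 in SSC. It was at least 2.91-fold higher in PFGC (adjusted p = 8.42e-07) and at least 4.10-fold in oocytes (adjusted p = 1.16e-07). Both probes were below detection on every SSC array, so they passed the filter through the groups in which they were high. Their adjusted p belong to the fitted differences and not to the bounds.

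Slc38a1, a system A carrier, had levels of 6.4, 6.23 and 6.33 in PFGC, 7.14, 7.05 and 7.09 in oocytes, and 5.07, 5.16 and 5.33 in SSC. It was at least 2.07-fold higher in PFGC and at least 3.54-fold in oocytes, with no overlap between any of the 3 groups. A second, dimmer probe, also undetected in SSC, was not called in PFGC (adjusted p = 0.22) and was at least 1.68-fold higher in oocytes (adjusted p = 0.00299). Slc38a2, the system A carrier that cells raise when amino acids run short, had levels of 11.83, 11.73 and 11.91 in PFGC, 12.23, 12.25 and 12.29 in oocytes, and 10.85, 10.95 and 11.88 in SSC. SSC replicate 3 thus lay with the PFGC arrays. Slc38a2 was 2.05-fold higher in oocytes than in SSC (adjusted p = 0.00288). PFGC minus SSC was 0.60 (SE 0.23, adjusted p = 0.0509), and without SSC replicate 3 it was 0.93 (adjusted p = 0.000135). With the replicate number as a block the difference of 0.60 was called (adjusted p = 0.0297). It was called as well with a larger background offset (0.0348), with no background correction (0.0326), on the authors' processed values (0.0326), with probes detected on all 9 arrays (0.0447), with the mean of its probes (0.0373), with a trended robust fit (0.0354) and with array weights (0.00194). Over all settings other than left-out arrays its adjusted p ran from 0.00194 to 0.115. With each array left out in turn, the Slc38a2 difference ran from 0.41 to 0.93, with an adjusted p of up to 0.182. A second probe of Slc38a2 gave 0.87 in PFGC (adjusted p = 0.0489) and 1.42 in oocytes.

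Slc38a5, a system N carrier, was not called against SSC in PFGC (-0.24) or in oocytes (0.25), with levels of 11.43, 11.21 and 11.39 in PFGC, 11.73, 11.90 and 11.85 in oocytes, and 11.46, 11.43 and 11.85 in SSC. Without SSC replicate 3, oocytes minus SSC was 0.38 and was called (adjusted p = 0.0203). Slc38a9, the lysosomal arginine sensor of the mTORC1 pathway, was 1.65-fold lower in PFGC and 1.69-fold lower in oocytes than in SSC (adjusted p = 0.00608 and 0.00365), and its second probe gave -0.87 and -0.81. For Slc38a10 PFGC minus SSC was -0.36 (1.28-fold lower, adjusted p = 0.0253), with -0.50 from a second probe. Its call ended without PFGC replicate 3 (adjusted p = 0.0884), SSC replicate 1 (0.0607) or SSC replicate 3 (0.059), and also with cyclic loess (0.112), with no normalization between arrays (0.108) or with only the 2 groups compared (0.0513). In oocytes against SSC, Slc38a10 differed by -0.10 and was not called. Slc38a7, a lysosomal glutamine carrier, differed by 0.11 in PFGC and 0.19 in oocytes, and the proton-coupled carrier Slc36a1 by 0.03 and -0.14, all of them uncalled.

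Several SLC6 carriers were higher in both sorted groups. Slc6a15, a carrier of proline and branched-chain amino acids, had levels of 7.37, 7.36 and 6.88 in PFGC, 8.36, 8.01 and 7.35 in oocytes, and 4.54, 4.58 and 4.68 in SSC. It was at least 3.82-fold higher in PFGC and at least 6.21-fold in oocytes (adjusted p = 8.61e-06 and 9.41e-07). The proline carrier Slc6a7, known mainly from brain, had levels of 6.86, 6.87 and 6.74 in PFGC, 6.90, 6.96 and 7.15 in oocytes, and 4.61, 4.69 and 4.60 in SSC. It was at least 2.94-fold higher in PFGC and at least 3.32-fold in oocytes. Neither gene was detected in SSC.

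The glycine carrier Slc6a9 was detected in every group, with levels of 10.64, 10.55 and 10.59 in PFGC, 10.80, 10.72 and 10.79 in oocytes, and 8.74, 8.96 and 8.84 in SSC. It was 3.36-fold higher in PFGC (log2 fold change 1.75, SE 0.10) and 3.80-fold in oocytes (1.92, SE 0.10). The taurine carrier Slc6a6 had levels of 11.80, 11.56 and 11.72 in PFGC, 12.04, 12.26 and 12.12 in oocytes, and 9.89, 9.66 and 10.41 in SSC. It was 3.27-fold higher in PFGC and 4.45-fold in oocytes, and a second, dimmer probe, undetected in SSC, was at least 1.09-fold and at least 1.36-fold higher. The serotonin carrier Slc6a4, which takes up a monoamine rather than an amino acid, was called higher in PFGC and in oocytes (adjusted p = 0.00503 and 0.00289). It was detected on 1 of the 3 SSC arrays, where its mean level of 4.94 lay below the lowest level of any detected probe (5.23 to 5.33), so no fold is given. The creatine carrier Slc6a8 was not called, with differences from SSC of 0.16 in PFGC and 0.27 in oocytes, although the oocyte difference was 0.42 and called without SSC replicate 3 (adjusted p = 0.0196).

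In the SLC1 family the neutral amino acid exchanger Slc1a4, which carries serine and alanine, had levels of 9.0, 8.76 and 8.73 in PFGC, 8.88, 9.24 and 8.78 in oocytes, and 6.80, 6.54 and 6.64 in SSC. It was 4.51-fold higher in PFGC (log2 fold change 2.17, SE 0.15) and 4.96-fold in oocytes (2.31, SE 0.15). Its close relative Slc1a5, the main glutamine exchanger of many dividing cells, was detected by none of its 5 probes on any array. The glutamate carrier Slc1a1 had levels of 5.08, 5.16 and 4.88 in PFGC, 5.57, 5.52 and 5.55 in oocytes, and 4.48, 4.36 and 4.68 in SSC. It was detected only on the 3 oocyte arrays and was at least 1.21-fold higher there than in SSC (adjusted p = 3.93e-05). PFGC against SSC was called (adjusted p = 0.00436), but both groups were below detection and no fold is given. The glutamate carrier Slc1a6, known from cerebellum, was 1.59-fold lower in PFGC (adjusted p = 0.0111) and 2.16-fold lower in oocytes (adjusted p = 0.000425) than in SSC. Its oocyte levels of 5.2, 5.34 and 5.44 lay near the lowest level of any detected probe there (5.14 to 5.25). Over the settings other than left-out arrays its log2 difference ran from -0.68 to -0.30 in PFGC and from -1.12 to -0.46 in oocytes. Slc1a3, the glial glutamate carrier, differed by -0.10 in PFGC and -0.30 in oocytes, uncalled, and without SSC replicate 2 the oocyte difference was -0.39 and called (adjusted p = 0.0472).

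**Figure D3:**
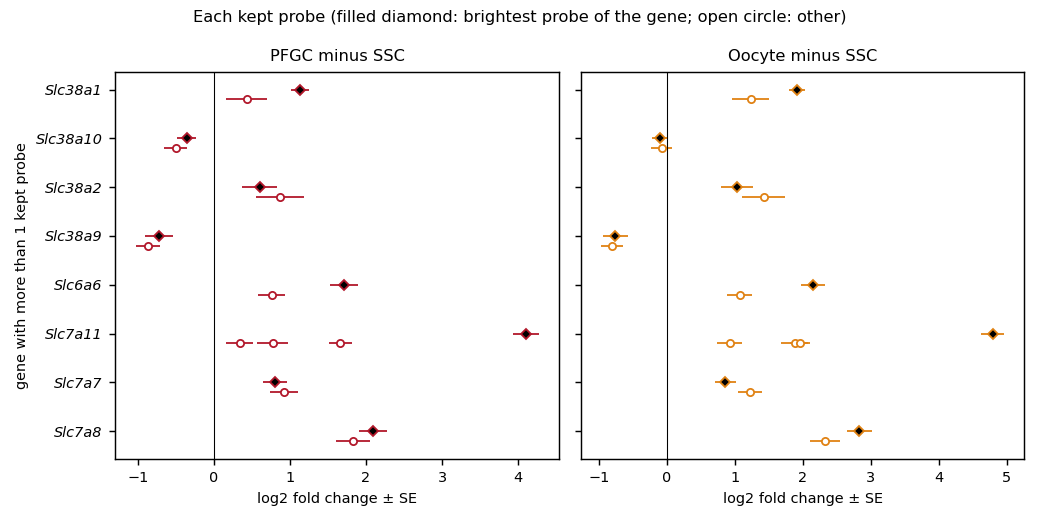
Log2 fold change ± SE (horizontal axis) of each detected probe of the 8 transporter genes with more than 1 (vertical axis), for PFGC minus SSC and oocytes minus SSC. Probes of a gene lie on the same side of 0. All probes of Slc7a11 and Slc38a1 and the dimmer probe of Slc6a6 were detected on no SSC array, so the sizes of their differences are limited by the background and by the brightness of the probe.

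The remaining 25 transporter genes were not detected on 3 arrays by any probe, and 21 of them were detected on none. Slc1a2 and Slc1a7 were each detected on 1 SSC array, Slc6a12 on 1 PFGC array and Slc6a17 on 2 oocyte arrays. Among those detected nowhere were the glycine carrier of neurons Slc6a5, the system A carrier Slc38a4, the monoamine carriers Slc6a2 and Slc6a3, and the light chains Slc7a10, Slc7a12, Slc7a13 and Slc7a15. A dim signal can reflect a poor probe as well as little RNA.

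Between PFGC and oocytes, the transporter genes called were all lower in PFGC. Of the 29, 6 were called lower (20.7%, background 4.3%) and 0 higher (background 7.96%) by limma, beside a background of 12.3% called in either direction. Changes of at least 2-fold were called for 0 members, against 3.13% of all genes higher and 0.325% lower. At an unadjusted p under 0.05 there were 11 members (37.9%, beside 28.7% of all genes), of which Slc1a6 alone was higher in PFGC. For the system A carrier Slc38a1 the log2 difference was -0.78 (SE 0.11, adjusted p = 0.00192), or 1.71-fold lower in PFGC. Slc7a3 was 1.70-fold lower (-0.77, SE 0.19), Slc7a8 1.67-fold (-0.74, SE 0.17) and Slc7a11 1.62-fold (-0.69, SE 0.17). Slc38a5 was 1.40-fold lower and Slc1a1, not detected in PFGC, at least 1.23-fold lower. PFGC and oocyte arrays did not overlap for these 6 genes, which the call nearly fixes, since 99.9% of all genes called in this comparison did not overlap either. Over all members 16 did not overlap (55.2%), beside 37.2% of all genes. The median log2 difference was -0.24 over the 29 and -0.01 over all genes, and it was negative in 24 members and positive in 5. Marker lists differed here too, and their part was not tested: oocyte markers were lower in PFGC for 4 of 12, granulosa and cumulus markers for 2 of 10, endothelial markers for 6 of 11 and macrophage markers for 4 of 8, while Sertoli markers were higher for 8 of 11 and lower for 1, spermatogonial markers higher for 5 of 12, and fibroblast and feeder markers higher for 2 of 11 (Thy1 and Fbln2).

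Single arrays changed the calls between PFGC and oocytes. Leaving out PFGC replicate 2, PFGC replicate 3, oocyte replicate 1 or oocyte replicate 2 left 1 member call each, and that call was Slc38a1. Calls over all 11077 genes fell too, from 1358 to 528, 796, 574 and 601 in that order. Leaving out PFGC replicate 1 or oocyte replicate 3 left 4 member calls, beside 1127 and 894 calls over all genes. Without oocyte replicate 3 the 4 included Slc38a3 (adjusted p = 0.041) and Slc6a15 (0.0142). With those 6 arrays left out in turn, adjusted p ran from 0.0848 to 0.113 for lost calls of Slc7a11, 0.058 to 0.117 for Slc7a3, 0.0542 to 0.0994 for Slc7a8, 0.0694 to 0.165 for Slc38a5 and 0.0542 to 0.099 for Slc1a1. Without SSC replicate 1 the Slc38a5 call was lost too (adjusted p = 0.0582), and without SSC replicate 3 Slc38a2 (0.0217) and Slc6a6 (0.0356) were called lower in PFGC. The call of Slc1a1 also ended with a larger background offset (adjusted p = 0.0715), with no background correction (0.189), on the authors' values (0.189) and with a trended robust fit (0.0831), that of Slc7a8 with the mean of its probes (0.0519), and that of Slc38a5 with no filter on dim probes (0.0598) or each probe on its own (0.0598). With the replicate number as a block, calls over all 11077 genes rose from 1358 to 2334. Among members, Slc38a3 (adjusted p = 0.0145) and Slc6a15 (0.0405) were then also called lower and Slc1a6 (0.0308) higher, for 9 calls. Without the block these 3 genes were at -0.50 (adjusted p = 0.055), -0.70 (0.0801) and 0.44 (0.15). With no normalization between arrays the median of all genes moved to -0.24 and that of the members to -0.45, the share of higher genes among all calls was 31.4% in place of 64.9%, and 8 members were called lower.

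**Figure D4:**
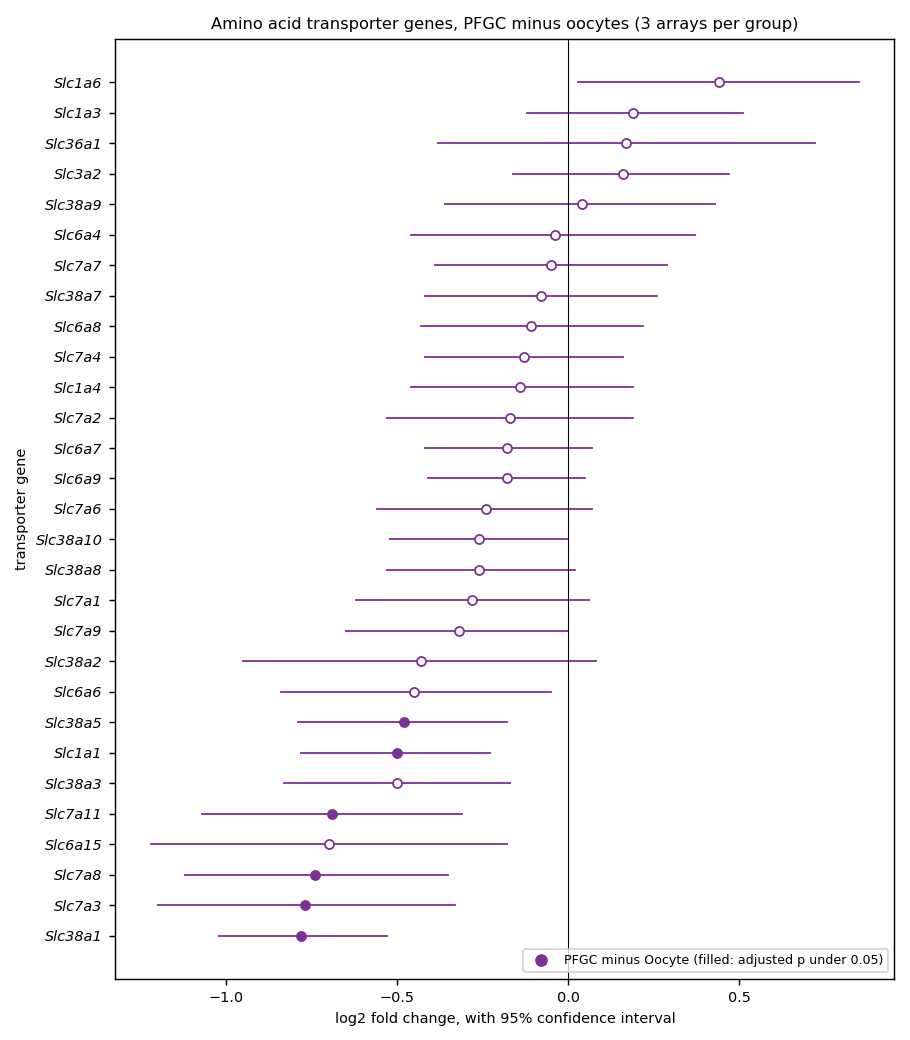
Log2 fold change with 95% confidence interval (horizontal axis) of the 29 detected transporter genes (vertical axis), PFGC minus oocytes, with filled points at an adjusted p under 0.05. The 6 filled points lie between -0.78 and -0.48, and 24 of 29 values are below 0.

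The amino acid response genes, a list of ATF4 targets and related genes, were higher in PFGC than in SSC for 16 of 22 detected members and lower for 0 at an adjusted p under 0.05 (72.7% higher, beside 24.5% higher and 27.6% lower over all genes). In oocytes 20 of 22 were higher and 0 lower (90.9% higher, beside 28.6% higher and 33.1% lower over all genes). Their median log2 fold change was 1.00 in PFGC and 1.20 in oocytes, beside -0.06 and -0.07 over all genes. Chac1, which degrades glutathione, had a log2 level of 11.14 ± 0.22 in PFGC, 11.41 ± 0.03 in oocytes and 5.66 ± 0.41 in SSC (SD, n = 3 each), where it was detected on 2 arrays. It was 44.6-fold higher in PFGC (adjusted p = 1.06e-08) and 53.8-fold in oocytes (adjusted p = 5.11e-09) by limma. Its SSC mean lay near the lowest level of any detected probe there (5.23 to 5.33), which limits how exactly these folds are known. The stress-induced gene Nupr1 was 19.4-fold and 23.4-fold higher, the lipoprotein receptor gene Vldlr 11.3-fold and 15.9-fold, and Cebpb, a transcription factor that pairs with ATF4, 8.09-fold and 11.0-fold. Chosen after their values were seen, Atf4 itself was 2.14-fold higher in PFGC and 2.43-fold in oocytes, and the asparagine synthetase gene Asns 1.75-fold and 2.21-fold. Phgdh, the first enzyme of serine synthesis, was at -0.80 in PFGC (adjusted p = 0.0535) and -0.38 in oocytes (adjusted p = 0.315), chosen in the same way. With the replicate number as a block, 18 genes of the list were called higher and 1 lower in PFGC against SSC. That block raised the calls over all genes from 5770 to 6716. Between PFGC and oocytes 1 gene of the list, Stc2, was lower in PFGC (1.54-fold) and 0 were higher by limma. That is 4.55% called, beside 12.3% of all genes. When the replicate number was a block 4 were lower and 1 higher, while calls over all genes rose from 1358 to 2334. Of the 20 response genes matched in the promoter table, 4 held TGATGNAA in the 250 bases before the start: Asns, Atf3, Chac1 and Nupr1.

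**Figure D5:**
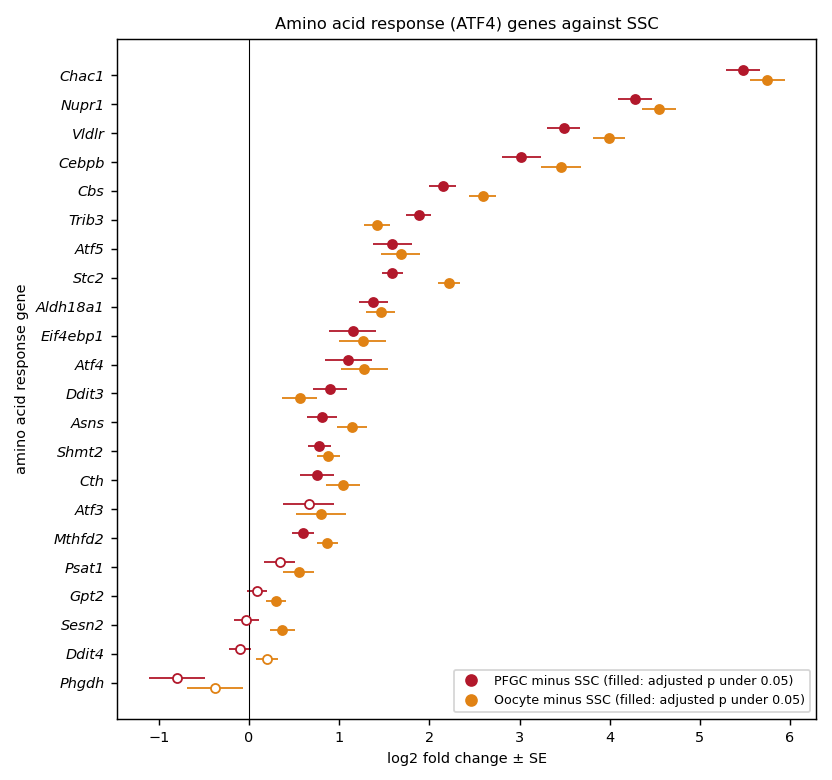
Log2 fold change ± SE (horizontal axis) of the 22 detected amino acid response genes (vertical axis) for PFGC minus SSC and oocytes minus SSC, with filled points at an adjusted p under 0.05. Chac1, Nupr1, Vldlr and Cebpb lie above 3 in both comparisons and Phgdh lies below 0.

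Among genes that sense amino acids for mTORC1, 13 of 29 detected were lower in PFGC than in SSC (44.8%, background 27.6%) and 4 higher (13.8%, background 24.5%), and the 58.6% called is near the 52.1% of all genes. In oocytes 17 were lower (58.6%, background 33.1%) and 6 higher (20.7%, background 28.6%). The Rag GTPase gene Rragb was 3.20-fold lower in PFGC and 4.05-fold lower in oocytes, and Depdc5, part of the complex that restrains mTORC1 when amino acids are scarce, 2.23-fold and 3.43-fold lower. Deptor, an inhibitor bound to mTOR itself, was 3.18-fold higher in PFGC and 4.04-fold in oocytes. The median log2 fold change was -0.27 in PFGC and -0.37 in oocytes. Aminoacyl-tRNA synthetase genes, which load amino acids onto tRNA, were higher in 7 of 19 and lower in 1 in PFGC (42.1% called, below the 52.1% of all genes). In oocytes 10 were higher and 2 lower (63.2% called, near the 61.7% of all genes). The asparaginyl-tRNA synthetase gene Nars was 3.75-fold higher in PFGC and 5.05-fold in oocytes, and the cysteinyl-tRNA synthetase gene Cars 3.25-fold and 4.23-fold. Between PFGC and oocytes, 2 sensing genes (Depdc5 and Lamtor4) were higher in PFGC by limma (6.9%, near the 7.96% of all genes). Of the synthetase genes 0 were called, beside 12.3% of all genes called in either direction. With the replicate number as a block, 4 sensing genes were higher and 1 lower, and 3 synthetase genes were lower. Calls over all genes rose from 1358 to 2334 with that block.

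Detection was similar across arrays, with 38.9% to 41.8% of probes detected. Median signals before normalization were higher on the oocyte arrays (116 to 122) than on the PFGC (104 to 109) and SSC arrays (108 to 110). The median absolute difference between replicates over the 29 transporter genes ran from 0.14 to 0.28 log2 units, the largest between SSC replicates 2 and 3. No 2 replicates held identical values beyond 1 probe.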

How the data were processed

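RNA of 9 samples was measured on single-colour Illumina arrays. GenomeStudio was used, per the submitters' processing notes, without a version in the sources used here. Per the file headers, the deposited table of non-normalized values gives an intensity and a detection p-value per probe and array. A second deposited table holds the authors' processed intensity, linear and uncentred, with a median of 112 in every column. How it was made is not stated, and its rank correlation with the non-normalized intensity was at least 0.9999 on each array.

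Background was corrected with limma 3.58.1 in R 4.3.3 (normal-exponential model, offset 16, negative controls estimated through the detection p-values), followed by quantile normalization and log2. Of 45281 probes, 34885 had 1 platform symbol, 18 several and 10378 were unnamed here. Symbols were updated through Entrez identifiers (34807 matched, RefSeq GRCm38.p6). Detected probes numbered 19934, and the brightest one stood for each gene. All 9 arrays entered 1 limma fit (lmFit, eBayes, two-sided) with group as the term. The fit was tried on data simulated with independent noise, which cannot show how it performs where arrays of the same number deviate together. Over all genes the median SE of a difference was 0.15 log2 units. Precision is limited by the number of arrays.

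Array-by-array values are given for the 8 largest called differences per comparison and a fixed set of carriers, and up to 4 called genes are named per other list. The members, lists and rules were chosen with earlier results of these data known. Arrays of the same number deviated together between groups (r of 0.13 to 0.57 across genes for every pair, although for 2 of the 9 pairs, both of replicate 2, another number correlated slightly more, at 0.19 against 0.13 and 0.25 against 0.24), so the fit with the replicate number as a block is given where it changes a call. Alternatives were other background corrections, normalizations, probe filters, probe summaries and fits, the authors' values, and each array left out.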

Additional observations from a re-analysis of the deposited data

How the results depend on the processing

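Array weights and fits of only the 2 groups compared also brought members past the threshold that are uncalled above: Slc38a5 (adjusted p = 0.0195) and Slc6a8 (0.00847) in oocytes against SSC, and Slc6a6 (0.0196 and 0.039) and Slc38a2 (0.0287, 2 groups) in PFGC against oocytes. In the last comparison, array weights also called Slc38a3 (0.0123), Slc6a15 (0.0127) and Slc1a6 (0.0441). Slc38a3 was called there with a larger background offset (0.0481), no normalization (0.0435) and the mean of probes (0.0495), and Slc6a6 with no normalization (0.0474). With only probes detected on all 9 arrays, 16 members could be measured. Of these, 10 were called in PFGC against SSC, 9 in oocytes against SSC and 2 in PFGC against oocytes. Over the 8639 genes measured in that setting, 4394, 5280 and 1033 were called, in the same order. That setting drops every member undetected in 1 group. Array weights gave 10 member calls in PFGC against oocytes (9 lower, 1 higher), while calls over all genes rose from 1358 to 2878. With each array left out in turn, member calls numbered 17 to 19 in PFGC against SSC, 19 to 21 in oocytes against SSC and 1 to 8 in PFGC against oocytes. Calls over all genes ran from 4981 to 5803, from 6170 to 6880 and from 528 to 1682. With the replicate number as a block, member calls numbered 20, 20 and 9 in these comparisons. Calls over all 11077 genes rose with the block from 5770 to 6716, from 6831 to 7636 and from 1358 to 2334. The block changed the calls of Slc38a2, Slc1a6, Slc38a3 and Slc6a15 given above and of no other transporter gene. In PFGC against oocytes it also moved the calls to 4 among other carriers (3 higher, 1 lower), 2 among glutathione genes (higher) and 8 among oocyte markers (lower). With no normalization between arrays, the share of higher genes among all calls was 57.2% in oocytes against SSC, in place of 46.3%, and the median of all genes was 0.08 in place of -0.07.

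Of the values of called members under these settings, 943 kept direction and call, 67 lost the call and 0 changed sign. Of the uncalled ones, 34 passed the threshold and 32 changed sign, to values between -0.19 and 0.09. The causes were not tested. For PFGC minus SSC the sign changed for Slc1a3 without SSC replicate 3 (range over arrays left out -0.20 to 0.04), for Slc36a1 without PFGC replicate 2, PFGC replicate 3 or SSC replicate 3 (-0.19 to 0.34), and for Slc7a1 with array weights (0) or without PFGC replicate 1 (-0.04 to 0.20). For oocytes minus SSC it changed with no normalization for Slc36a1 (0.01), Slc38a10 (0.06) and Slc7a4 (0.06), for Slc7a4 with cyclic loess (0) and with arrays left out (-0.16 to 0.03), and for Slc7a6 with scaling to the 75th percentile (-0.01), array weights (-0.09) or arrays left out (-0.12 to 0.07). For PFGC minus oocytes it changed with no normalization for Slc1a3 (-0.04) and Slc38a9 (-0.18), for Slc38a9 with the mean of probes (-0.01) or each probe alone (-0.06), for Slc6a4 with 75th percentile scaling (0.02), cyclic loess (0.05) or array weights (0.05), and for Slc7a7 with cyclic loess (0.01) or array weights (0.02). With arrays left out, PFGC minus oocytes ran from -0.23 to 0 for Slc1a4, -0.06 to 0.48 for Slc36a1, -0.17 to 0.06 for Slc38a7, -0.10 to 0.26 for Slc38a9, -0.12 to 0.09 for Slc6a4 and -0.20 to 0.05 for Slc7a7. Probes near the detection limit bound what can be said of Slc3a2, Slc7a1, Slc7a9, Slc36a1, Slc1a1 and Slc1a6, and of Slc7a3 in SSC. Fold bounds given above hold for the main processing only. Over settings other than left-out arrays, the lowest log2 fold changes in PFGC and oocytes against SSC were 1.26 and 1.44 for Slc38a8. They were 0.93 and 1.23 for Slc38a3, 0.89 and 0.99 for Slc6a7, 1.13 and 1.62 for Slc6a15, and 0.44 and 0.86 for Slc38a1.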

Other observations

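Of 14 detected genes for other amino acid and peptide carriers outside the 6 families above, 5 were higher and 3 lower in PFGC than in SSC (57.1% called, near the 52.1% of all genes), and 7 were higher and 5 lower in oocytes (85.7% called, beside 61.7%). The mitochondrial ornithine carrier gene Slc25a15 was 2.56-fold higher in PFGC and 3.02-fold in oocytes, and the histidine and peptide carrier gene Slc15a3 at least 2.04-fold and at least 2.83-fold. The mitochondrial glutamate carrier gene Slc25a18 was 3.25-fold lower in PFGC and 5.20-fold lower in oocytes than in SSC, and 1.60-fold higher in PFGC than in oocytes (adjusted p = 0.0365 by limma). The vesicular glutamate carrier gene Slc17a7 was at least 1.82-fold lower in oocytes, where it was not detected.

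Glutathione is made from the cysteine that cystine import supplies. Of 8 detected genes of glutathione and redox metabolism, 3 were higher and 3 lower in PFGC than in SSC (75% called, beside 52.1% of all genes), and 2 were higher and 3 lower in oocytes (62.5% called, near the 61.7% of all genes). Hmox1, which breaks down heme, was 3.31-fold higher in PFGC and 4.32-fold in oocytes. Gclm, the modifier subunit of the enzyme that limits glutathione synthesis, was chosen after its values were seen and had log2 fold changes of -0.39 in PFGC (adjusted p = 0.0296 by limma) and -0.49 in oocytes (adjusted p = 0.00746) against SSC. Nqo1, a quinone reductase, was 2.23-fold higher in PFGC than in oocytes (adjusted p = 0.00234).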
